A study of Mus musculus with 12 samples.

Results

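Glycolysis and lactate handling were followed through 10 genes, Hk1, Hk2, Pfkl, Pfkm, Pfkp, Pfkfb3, Pkm, Ldha, Ldhb and Slc16a1, chosen as the rows of the deposited expression table that carry these symbols, and all 10 were found among 24091 genes. RNA sequencing covered 12 mouse samples in 4 groups of 3. Tumors were medulloblastomas of mice GB344, GB359 and GB370, which carried Brca2Δex3-4 and were Trp53-/- (labelled Brca2-mut;Trp53-mut), and adjacent samples were cerebellum beside the tumor from the same 3 mice. The controls were cerebella of tumor-free mice at postnatal day 90, of which GB361, GB508 and GB512 were Brca2-mut;Trp53-WT and GB517, GB519 and GB520 were Brca2-WT;Trp53-mut. Each sample came from a different mouse except for the tumor and adjacent pairs. The Brca2 deletion was made by Cre under the human GFAP promoter, which is active in neural progenitors of the central nervous system, whereas the Trp53 knockout was present in every cell. No group was wild type at both loci, and the study describes the tumors and controls as age-matched without an age for each tumor-bearing mouse. Values are TPM, transcript abundances that are scaled for transcript length and library total, so levels of different genes can be set side by side. TPM hold no read counts, and the depth behind each value is unknown.

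Hexokinase traps glucose in the cell as glucose 6-phosphate, phosphofructokinase commits it to glycolysis, and pyruvate kinase forms pyruvate at the end of the pathway. Lactate dehydrogenase converts pyruvate to lactate and back, with the A subunit linked to lactate formation and the B subunit to lactate use, and monocarboxylate transporters carry lactate across the membrane. Hexokinase 1 is the main hexokinase of mature brain, whereas hexokinase 2 is known from granule cell progenitors under Sonic hedgehog signaling and from many tumors.

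The tissue labels were compared with marker genes. Over 8 granule progenitor markers, the summed level was 1783 to 1976 TPM in tumors and 46.8 to 52.0 TPM in controls. Of this sum, Mycn alone gave 1133 TPM in the GB344 tumor, and 355.6 and 343.9 TPM in those of GB359 and GB370. Adjacent samples of GB344 and GB359 reached 519.8 and 484.0 TPM of the same sum, and that of GB370 reached 83.9 TPM. Over 8 proliferation markers, these 3 adjacent samples had 364.4, 209.0 and 27.8 TPM, whereas tumors had 846.7 to 861.8 TPM and controls 6.005 to 47.9 TPM, the highest of them in GB512. Summed markers of granule neurons were 134.1 to 460.8 TPM in tumors and 3210 to 4202 TPM in controls, those of Purkinje cells 231.0 to 377.3 and 5769 to 9071 TPM, those of astrocytes 328.6 to 577.8 and 1802 to 2250 TPM, and those of oligodendrocytes 126.3 to 349.9 and 3566 to 5471 TPM. Over 7 microglia markers, tumors had 278.3 to 443.9 TPM and controls 105.2 to 210.8 TPM, and the adjacent samples of GB344, GB359 and GB370 had 283.4, 255.9 and 129.5 TPM. Every difference between tumor and cerebellum below stood beside these differences in marker levels, whose part in it was not tested. In such bulk tissue, fewer cells of a type and less RNA per cell cannot be told apart.

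In tumors, the hexokinase and lactate dehydrogenase genes differed from cerebellum in opposite directions within each pair. Hk2 and Ldha were higher than in controls, by 7.005-fold and 2.48-fold in mean TPM, and Hk1, Ldhb and all 3 phosphofructokinase genes were lower, by 2.31-fold to 6.92-fold. Pkm, Pfkfb3 and Slc16a1 were not called. Thus 2 of the 10 genes rose and 5 fell, where a call requires a limma adjusted p under 0.01 (Benjamini-Hochberg over all tested genes) and a difference of at least 1 in log2(TPM + 1). Over all 16241 genes tested, 14.4% were called higher and 21.5% lower. The median difference of the 10 genes was -0.89 and that of all genes -0.11 on this log2 scale. With either control genotype alone, 7 of the 10 genes were called.

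**Figure D1:**
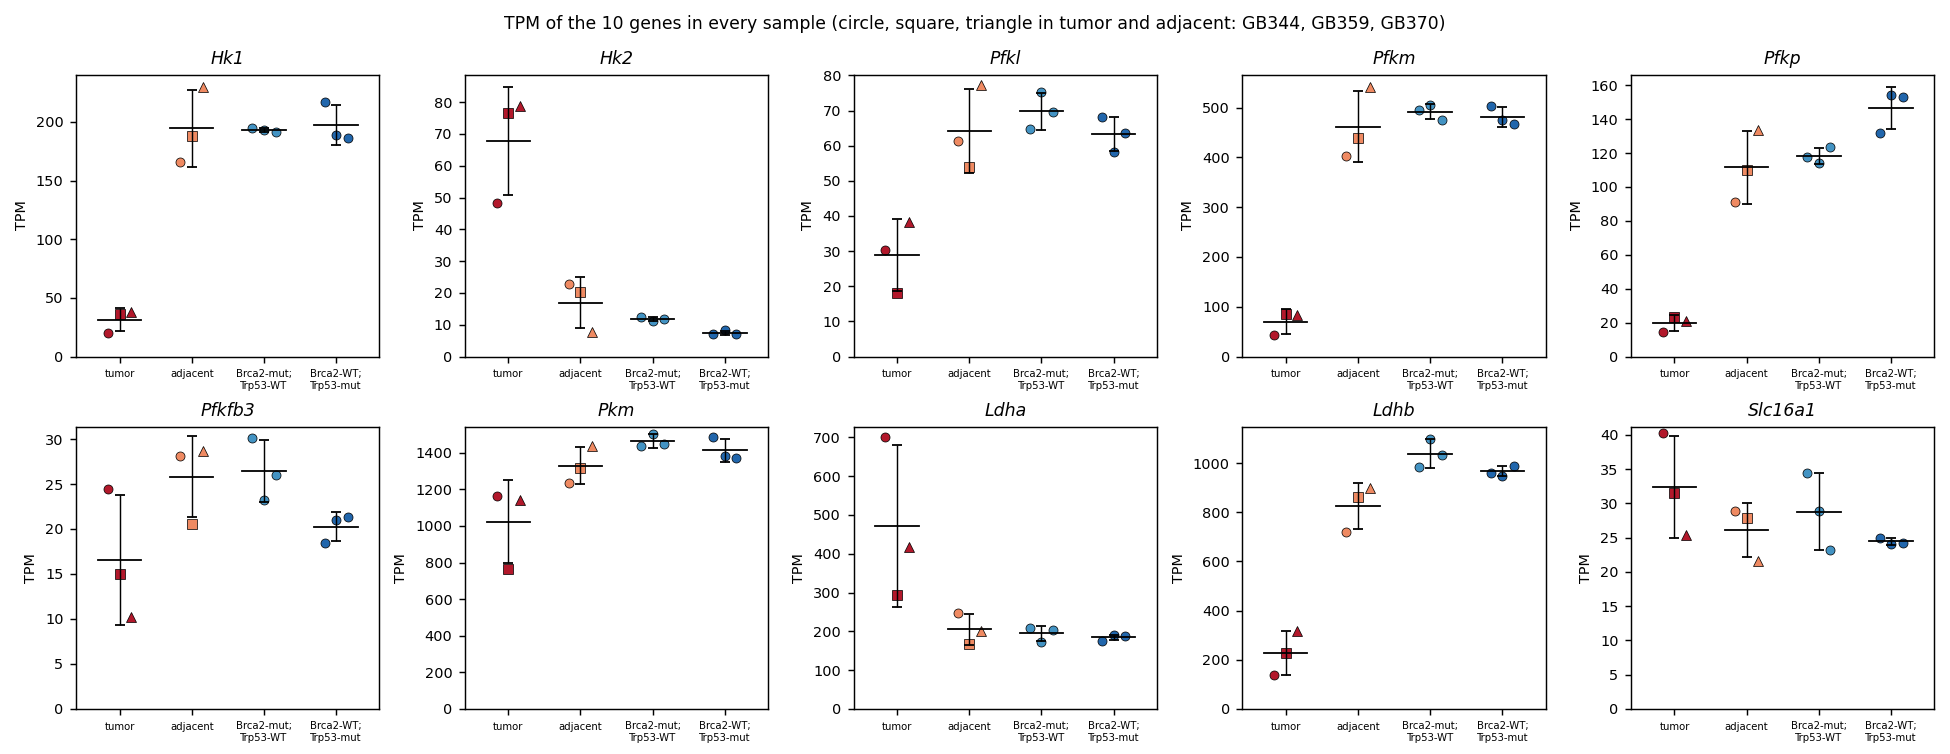
TPM of each of the 10 genes (vertical axes, linear, each starting at 0) in the 4 groups; each point is a sample, horizontal lines are means and bars the SD (n = 3), and in tumor and adjacent groups circles, squares and triangles are mice GB344, GB359 and GB370. The 3 tumors lie below every other sample for Hk1, Pfkl, Pfkm, Pfkp, Pkm and Ldhb and above every other sample for Hk2 and Ldha. The share of all genes separated in this way was not counted.

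Hexokinase 1 (Hk1, Entrez 15275, chromosome 10: 62268855-62379920, GRCm38.p6) binds to mitochondria and supplies most hexokinase activity in neurons. It had 19.9, 36.4 and 38.4 TPM in the tumors of GB344, GB359 and GB370, 165.5, 188.4 and 229.9 TPM in the adjacent samples of these mice, and 186.0 to 217.2 TPM with a median of 192.1 TPM in the 6 controls. All 3 tumors were far below every cerebellum, and adjacent and control levels overlapped. Mean TPM was 31.6 ± 10.2 (SD, n = 3) in tumors and 195.2 ± 11.2 (SD, n = 6) in controls, 6.18-fold lower in tumors, and the log2 difference was -2.64 ± 0.17 (SE, adjusted p = 3.05e-07, limma). This call held under all 21 alternatives, between -2.81 and -2.35.

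Hexokinase 2 (Hk2, Entrez 15277, chromosome 6: 82725025-82774454) is the inducible form of the same enzyme. Its level was 48.3, 76.6 and 78.7 TPM in the tumors and 22.7, 20.3 and 7.77 TPM in the adjacent samples, in the same order of mice. In controls it was 12.6, 11.3 and 11.7 TPM in Brca2-mut;Trp53-WT mice GB361, GB508 and GB512, and 7.18, 8.30 and 7.07 TPM in Brca2-WT;Trp53-mut mice GB517, GB519 and GB520. Every tumor exceeded every cerebellum, and the adjacent samples of GB344 and GB359 exceeded every control while that of GB370 lay among the controls. Mean Hk2 was 7.005-fold higher in tumors (67.8 ± 17.0 TPM, SD, n = 3) than in controls (9.68 ± 2.45 TPM, SD, n = 6), with a log2 difference of 2.69 ± 0.22 (SE, adjusted p = 1.59e-06, limma) that stayed between 2.39 and 2.99 over 21 alternatives.

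As a share of Hk1 and Hk2 TPM together, Hk2 made up 70.8%, 67.8% and 67.2% in the tumors of GB344, GB359 and GB370. In the 9 cerebellar samples it made up 3.20% to 12.1%. The tumor shares were within 4 percentage points of each other although the GB344 tumor had the lowest TPM of both genes. The summed level of both genes was 68.2, 113.0 and 117.0 TPM in tumors and 193.0 to 224.3 TPM in controls, so the gain of Hk2 in TPM was smaller than the loss of Hk1. These shares are a description, and no test was run on them. The other hexokinase genes were low, with 1.16 to 2.65 TPM of Hk3 in tumors against 0.447 to 1.07 TPM in controls, a log2 difference of 0.82 (adjusted p = 0.00242, limma) that is under the minimum of 1. A gene was tested only if 3 samples reached 1 TPM, and Hk3 met this only through the tumors, where it is high. Its p is therefore tied to that filter.

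The sequences just before the start sites are shown for the pairs whose members moved in opposite directions. They are the 250 bases before a RefSeq transcript start of each gene (GRCm38.p6), the most upstream start with a window in the promoter table, written 5′ to 3′ on the gene's strand. For Ldha and Hk1 the gene's interval given here reaches upstream of that start, so their windows lie partly or wholly inside it. Both genes also have a downstream start whose window is not shown, and which start these tissues use was not tested. Capitals mark CACGTG, the E-box that MYC family proteins bind, and ACGTG or its complement CACGT outside an E-box, a form of the hypoxia response element core. The form of this core that begins with G, GCGTG, was not searched. The windows are chr10:62379909-62380158 (minus strand) for Hk1, chr6:82774455-82774704 (minus strand) for Hk2, chr7:46845554-46845803 (plus strand) for Ldha and chr6:142507958-142508207 (minus strand) for Ldhb.
Hk1: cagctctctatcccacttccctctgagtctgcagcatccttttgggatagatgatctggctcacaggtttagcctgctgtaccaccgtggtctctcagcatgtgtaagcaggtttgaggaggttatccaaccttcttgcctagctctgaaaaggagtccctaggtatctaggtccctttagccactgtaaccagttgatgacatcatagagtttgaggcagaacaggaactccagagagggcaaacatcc
Hk2: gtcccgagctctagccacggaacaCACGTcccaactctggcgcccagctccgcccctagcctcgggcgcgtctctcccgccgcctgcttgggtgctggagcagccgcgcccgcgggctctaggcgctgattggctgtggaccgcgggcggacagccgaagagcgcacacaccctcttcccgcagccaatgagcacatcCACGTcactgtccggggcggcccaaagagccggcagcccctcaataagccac
Ldha: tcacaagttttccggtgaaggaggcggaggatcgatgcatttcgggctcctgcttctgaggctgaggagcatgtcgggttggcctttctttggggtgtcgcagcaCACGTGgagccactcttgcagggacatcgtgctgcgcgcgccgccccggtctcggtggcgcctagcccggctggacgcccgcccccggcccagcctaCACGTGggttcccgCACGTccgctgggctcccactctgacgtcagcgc
Ldhb: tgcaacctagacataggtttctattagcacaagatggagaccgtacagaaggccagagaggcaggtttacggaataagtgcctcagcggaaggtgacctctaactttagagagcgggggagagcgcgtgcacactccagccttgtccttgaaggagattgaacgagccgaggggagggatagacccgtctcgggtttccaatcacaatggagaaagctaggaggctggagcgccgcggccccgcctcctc
Hk2 holds 2 ACGTG cores outside an E-box, which begin 226 and 52 bases before the start. The Ldha window holds 2 E-boxes, 145 and 48 bases before the start, and 1 further ACGTG core at 34 bases. Neither marked motif occurs in the Hk1 and Ldhb windows shown, but the Ldhb window holds the unsearched form GCGTG. The windows therefore do not separate genes with a hypoxia response core from genes without it. Among 32851 RefSeq promoter windows of this length, 6.02% hold CACGTG and 11.4% hold ACGTG outside it, searched on both strands. The GLI site GACCACCCA, present in 0.225% of windows, is in none of the 17 windows of the 10 genes. E-boxes also stand in windows of Pfkm, Pfkfb3 and Slc16a1, and ACGTG cores in windows of Pfkm, Pfkfb3 and Pkm, genes that were lower in tumors or not called. A match describes the letters of a window and does not show binding.

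Phosphofructokinase is encoded by 3 genes named for liver, muscle and platelet, whose subunits form mixed tetramers. Pfkm (Entrez 18642, chromosome 15: 98092589-98132447), the most abundant of them in every sample, had 42.3, 84.9 and 83.8 TPM in tumors, 403.6, 439.1 and 541.3 TPM in adjacent samples and 466.0 to 504.4 TPM, with a median of 485.4 TPM, in controls. Tumors did not overlap with any cerebellum. The mean was 6.92-fold lower than in controls, with a log2 difference of -2.84 ± 0.19 (SE, adjusted p = 3.17e-07, limma).

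Pfkp (Entrez 56421, chromosome 13: 6579874-6649060), the platelet form, had 14.3, 23.2 and 21.2 TPM in tumors, 90.9, 109.8 and 133.9 TPM in adjacent samples, and 114.2 to 154.3 TPM with a median of 127.8 TPM in controls. It too was lower in all tumors than in all cerebella, 6.76-fold below the control mean, with a log2 difference of -2.71 ± 0.16 (SE, adjusted p = 1.23e-07, limma). For Pfkl (Entrez 18641, chromosome 10: 77986947-78009807), the liver form, tumors had 30.3, 18.0 and 38.2 TPM, adjacent samples 61.3, 54.1 and 77.3 TPM, and controls 58.3 to 75.3 TPM with a median of 66.3 TPM. The gap was smaller than for the other forms, 2.31-fold below the control mean, with a log2 difference of -1.24 ± 0.19 (SE, adjusted p = 0.000174, limma). Without the GB359 tumor, which had the lowest Pfkl, the difference was -0.94 and under the minimum of 1.

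Summed over the 3 genes, phosphofructokinase was 87.0, 126.2 and 143.2 TPM in tumors and 668.9 to 704.0 TPM in controls. The share of Pfkl in this sum was 34.8%, 14.3% and 26.7% in tumors and 8.48% to 11.03% in the 9 cerebella. That of Pfkm was 48.7%, 67.3% and 58.5% in tumors and 68.2% to 73.1% in cerebella, and that of Pfkp ranged over 14.8% to 18.4% in tumors and 16.4% to 22.5% in cerebella. Tumors thus held a larger part of the sum as Pfkl and a smaller part as Pfkm, and their Pfkp shares overlapped with those of cerebellum.

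**Figure D2:**
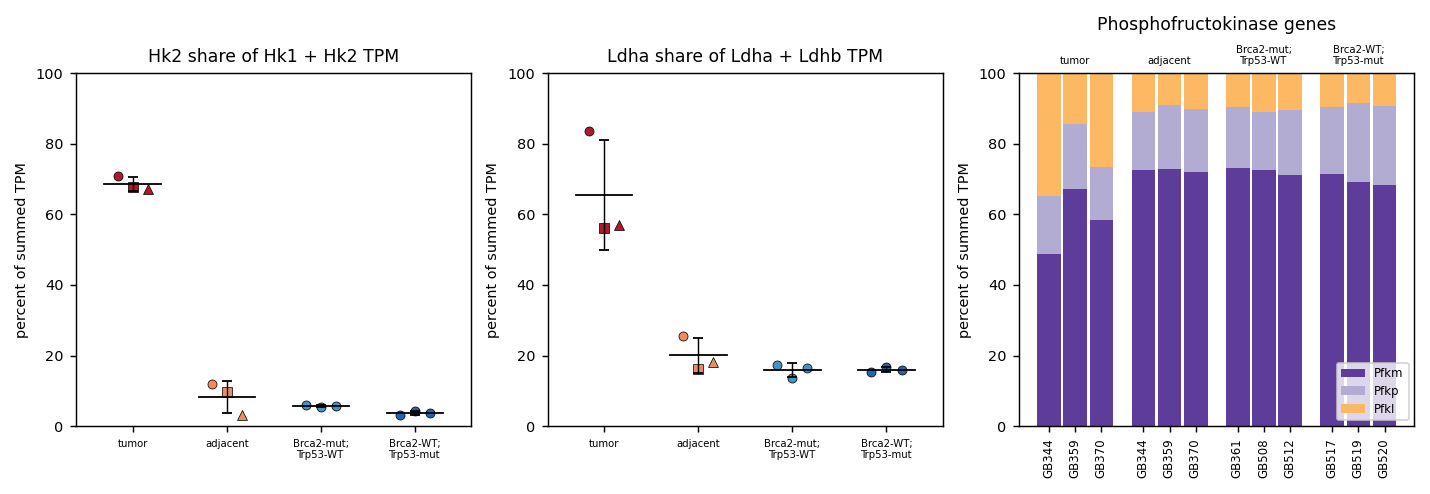
Share of each gene in the summed TPM of its family (vertical axes, percent), per sample; in the left and middle panels lines are means and bars the SD (n = 3), and in the right panel each bar is a sample. Hk2 made up 67.2% to 70.8% of hexokinase TPM in tumors against at most 12.1% elsewhere, and Ldha 56.2% to 83.6% of lactate dehydrogenase TPM against at most 25.6%.

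Pfkfb3 (Entrez 170768, chromosome 2: 11471430-11554071) makes fructose 2,6-bisphosphate, the main allosteric activator of phosphofructokinase. It had 24.4, 14.95 and 10.3 TPM in tumors, 28.1, 20.6 and 28.7 TPM in adjacent samples, and 18.4 to 30.1 TPM with a median of 22.3 TPM in controls. The GB344 tumor lay among the controls and the other tumors below them. The log2 difference from controls was -0.54 ± 0.23 (SE) and did not pass (adjusted p = 0.0604, limma).

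Pkm (Entrez 18746, chromosome 9: 59656576-59679372), the pyruvate kinase gene of brain and of proliferating cells, was the most abundant of the 10 genes in every sample. Its level was 1164, 765 and 1143 TPM in tumors, 1235, 1319 and 1435 TPM in adjacent samples, and 1371 to 1505 TPM with a median of 1443 TPM in controls. All tumors lay below all cerebella, and GB359 was the lowest. The log2 difference from controls was -0.51 ± 0.13 (SE), with an adjusted p of 0.00446 (limma) but a size under the minimum of 1. Over 21 alternatives it ran from -0.996, just under that minimum in size, to -0.317. Because the values are summed per gene, the adult and embryonic splice forms of pyruvate kinase M were not separated.

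Ldha (Entrez 16828, chromosome 7: 46842274-46855627) encodes the A subunit of lactate dehydrogenase. Tumors had 700.5, 293.7 and 417.8 TPM, adjacent samples 247.7, 167.4 and 201.3 TPM, and controls 172.9 to 207.8 TPM with a median of 188.3 TPM. Every tumor was above every cerebellum, and the GB344 tumor stood apart from the other tumors. Mean Ldha was 2.48-fold higher in tumors (470.7 ± 208.5 TPM, SD, n = 3) than in controls (189.5 ± 14.3 TPM, SD, n = 6), a log2 difference of 1.22 ± 0.21 (SE, adjusted p = 0.000444, limma). Without the GB344 tumor the difference was 0.89 and under the minimum of 1. Mycn, an E-box binding factor amplified in some medulloblastomas, had 1133 TPM in the GB344 tumor and 355.6 and 343.9 TPM in those of GB359 and GB370. It is 1 of the 8 progenitor markers, whose sum was 1783, 1824 and 1976 TPM in these tumors. The rest of these markers together were thus lowest in the GB344 tumor. The part of Mycn or of these markers in the Ldha level was not tested.

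Ldhb (Entrez 16832, chromosome 6: 142490249-142507957), the B subunit and the main form in neurons, had 137.1, 229.3 and 315.7 TPM in tumors, 718.5, 860.8 and 898.4 TPM in adjacent samples, and 948.7 to 1099 TPM with a median of 986.1 TPM in controls. The 3 groups did not overlap. The mean in tumors was 4.41-fold below that in controls, with a log2 difference of -2.21 ± 0.20 (SE, adjusted p = 3.56e-06, limma). Ldha made up 83.6%, 56.2% and 57.0% of the summed Ldha and Ldhb TPM in tumors and 13.6% to 25.6% in the 9 cerebella. The sum itself was 837.6, 523.0 and 733.5 TPM in tumors and 1137 to 1272 TPM in controls.

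Slc16a1 (Entrez 20501, chromosome 3: 104638664-104658462) encodes the lactate transporter MCT1, which in adult brain is found in endothelium and glia. It had 40.2, 31.5 and 25.4 TPM in tumors, 28.8, 27.9 and 21.7 TPM in adjacent samples, and 23.2 to 34.4 TPM with a median of 24.6 TPM in controls. The groups overlapped, and the log2 difference of tumors from controls was 0.26 ± 0.16 (SE, adjusted p = 0.168, limma).

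Against the adjacent cerebellum of the same mice, 1 of the 10 genes, Hk2, was called higher and 4, Hk1, Pfkm, Pfkp and Ldhb, were called lower. Of all 15845 genes tested, 4.76% were called higher and 18.0% lower. This split of all genes depended on scaling, with 755 higher and 2852 lower here, 1282 and 2486 after median-of-ratios scaling, and 1648 and 2136 after quantile normalization. The 755 higher calls became 458, 275 and 189 without the tumor of GB344, GB359 or GB370, and 210 without the adjacent sample of GB359. The tumor samples are the same as in the comparison with controls, so the 2 comparisons are not independent.

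Hk2 was 2.13-fold, 3.77-fold and 10.1-fold higher in the tumor than in the adjacent sample of GB344, GB359 and GB370. The log2 difference was 2.03 ± 0.40 (SE, adjusted p = 0.00634, limma). With the mouse as a replicate block the adjusted p was 0.0134, so the call was lost, as it was without the GB359 tumor (0.0243), the GB370 tumor (0.0251) or the adjacent sample of GB359 (0.0141), and with no filter on low values (0.0115). The adjacent samples with the higher Hk2, those of GB344 and GB359, were also the ones with higher progenitor, proliferation and microglia markers, and the part of these markers in the Hk2 level was not tested.

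Within the 3 mice, Hk1 was 8.32-fold, 5.17-fold and 5.99-fold lower in the tumor, with a log2 difference of -2.63 ± 0.27 (SE, adjusted p = 0.00046, limma). Pfkm was lower by 9.53-fold, 5.17-fold and 6.46-fold (log2 difference -2.75 ± 0.28, SE, adjusted p = 0.000491, limma), and Pfkp by 6.35-fold, 4.72-fold and 6.31-fold (-2.46 ± 0.22, SE, adjusted p = 0.000327). For each of these genes the largest ratio was in GB344. Ldhb was lower by 5.24-fold, 3.75-fold and 2.85-fold (-1.93 ± 0.30, SE, adjusted p = 0.00234, limma), and its call was lost without the adjacent sample of GB359 (adjusted p = 0.0112).

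Ldha was 2.83-fold, 1.75-fold and 2.08-fold higher in the tumor of the same mouse, and the log2 difference of 1.12 ± 0.32 (SE) was not called (adjusted p = 0.0252, limma). With the mouse as a replicate block it was called (adjusted p = 0.00633). Pfkl was lower in each tumor, by 2.02-fold, 3.01-fold and 2.02-fold, with a log2 difference of -1.18 ± 0.28 (SE, adjusted p = 0.0132, limma) that was likewise called with the block (adjusted p = 0.00492). The remaining genes did not pass, with log2 differences of -0.68 for Pfkfb3, -0.40 for Pkm and 0.29 for Slc16a1.

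**Figure D3:**
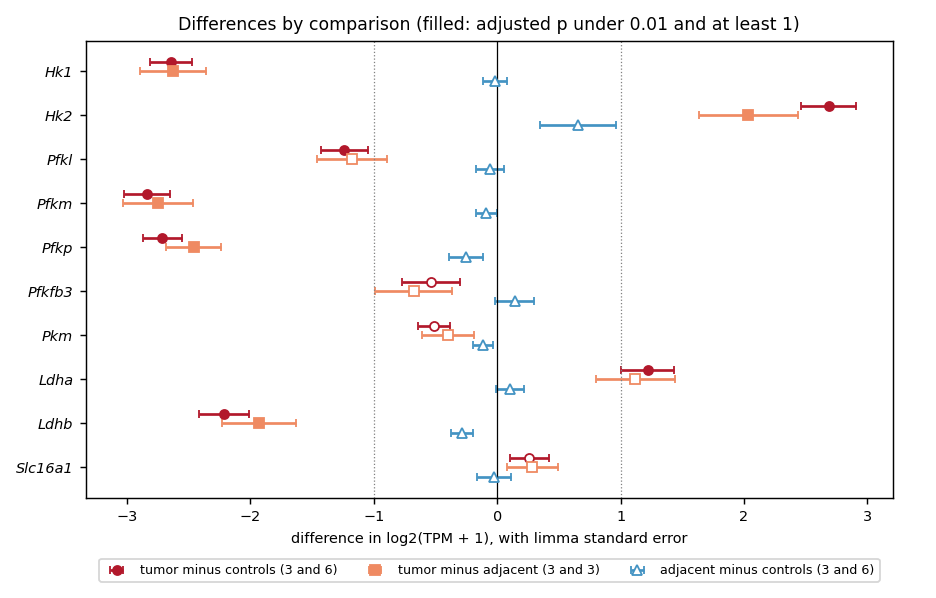
Difference in log2(TPM + 1) (horizontal axis) of each of the 10 genes for tumor minus controls, tumor minus adjacent and adjacent minus controls; bars are limma standard errors, filled symbols are calls, and dotted lines mark a difference of 1. Differences of adjacent from control samples lie between -0.28 and 0.65, and none is called.

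Adjacent cerebellum was compared with the controls to see whether it differed at these genes. None of the 10 genes was called, where 0.224% of 16091 genes were called higher and 0.0124% lower (limma). At the looser cut of an unadjusted p under 0.05, 1 of the 10, Ldhb, passed. The share of all genes at that cut was not counted. At an adjusted p under 0.05 with no minimum difference, 1627 genes were higher and 897 lower. For Ldhb the log2 difference was -0.28 ± 0.09 (SE, adjusted p = 0.0542), and all 3 adjacent samples lay below all controls. Summed astrocyte markers were 1581 to 1747 TPM in adjacent samples and 1802 to 2250 TPM in controls, without overlap. Overlapping sums were those of Purkinje cells (4669 to 5810 and 5769 to 9071 TPM), granule neurons (2475 to 3714 and 3210 to 4202 TPM) and oligodendrocytes (1789 to 4799 and 3566 to 5471 TPM). The part of these markers in the Ldhb level was not tested. Hk2 had the largest difference, 0.65 ± 0.31 (SE, adjusted p = 0.165). Without the adjacent sample of GB370 it was 1.11 and was called (adjusted p = 0.00815), whereas with GB370 as the only adjacent sample it was -0.25 (adjusted p = 0.695). In that last fit, which was added after the values were seen, the lone sample is assumed to vary as the controls do. The count over all genes moved with single samples too, from 36 higher and 2 lower to 564 and 22 without the adjacent sample of GB370, to 1 and 1 without that of GB344, and to 11 and 29 without that of GB359. Leaving out any 1 control left 0 to 7 genes called higher and 0 lower. The 2 samples that carry the Hk2 difference are those with progenitor marker sums of 519.8 and 484.0 TPM.

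Between the control genotypes, which differ at both Brca2 and Trp53, none of the 10 genes was called (limma). Of 15575 genes tested, 0.0128% were called higher in Brca2-mut;Trp53-WT cerebellum and 0.0449% lower, which is 2 and 7 genes. The 7 lower calls became 27 without GB361, 3 without GB508, 4 without GB512 and 2 without GB517, GB519 or GB520, and the 2 higher calls became 5 without GB519 and 3 without GB520. At the looser cut of an unadjusted p under 0.05, 3 of the 10 genes passed, Hk2, Pfkp and Pfkfb3 (limma). The share of all genes at that cut was not counted. At an adjusted p under 0.05 with no minimum difference, 6 genes were higher and 65 lower. Hk2 was higher in all 3 Brca2-mut;Trp53-WT samples than in all 3 Brca2-WT;Trp53-mut samples, with a log2 difference of 0.60 ± 0.11 (SE, adjusted p = 0.0664). Pfkp was lower by 0.30 ± 0.08 (SE, adjusted p = 0.108), and its groups did not overlap either. For Pfkfb3 the log2 difference was 0.37 ± 0.11 (SE, adjusted p = 0.152). Summed choroid plexus markers were 3986 to 5211 TPM in Brca2-WT;Trp53-mut samples and 31.0 to 891.5 TPM in the other controls, and summed Purkinje markers 5769 to 6178 and 7621 to 9071 TPM, and the part of either tissue in these values was not tested.

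The other genes of the pathway were taken from 4 lists, of which 59 of 63 genes passed the filter on low values in the comparison of tumors with controls. Of these 59, 2 rose and 22 fell, beside 14.4% of all genes called higher and 21.5% lower. The 2 that rose, Slc16a3 and Pfkfb1, reached 1 TPM in no control. The filter thus kept both only through the tumors, where they are high. Among 18 other glycolytic enzymes tested of 22 listed, 0 were called higher and 8 lower, with a median log2 difference of -1.01 beside -0.11 for all genes. Of these 18, 15 had an unadjusted p under 0.05. The share of all genes at that cut was not counted. At an adjusted p under 0.05 with no minimum difference, 5165 of all 16241 genes were higher and 6408 lower. The 2 largest falls among the 18 enzymes were in the neuronal and glial forms. Aldoc, the brain aldolase known from astrocytes and bands of Purkinje cells, fell by 4.85 on the log2 scale (SE 0.38, adjusted p = 1.14e-06), from 1309 to 2146 TPM in controls to 23.5, 71.5 and 110.9 TPM in tumors. Eno2, the neuron-specific enolase, fell by 4.48 (SE 0.27, adjusted p = 1.84e-07), from 561.2 to 659.6 TPM in controls to 12.7, 37.55 and 34.98 TPM in tumors. Both stood beside the lower Purkinje and astrocyte marker sums given above.

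Widely expressed enzymes of the pathway differed less. Aldoa, the common aldolase, fell by 2.10 (SE 0.07, adjusted p = 1.02e-08), Pgam1, phosphoglycerate mutase, by 1.54 (SE 0.14, adjusted p = 3.54e-06), and Gpi1, glucose 6-phosphate isomerase, by 1.08 (SE 0.11, adjusted p = 9.59e-06, limma). Gpi1 was under the minimum of 1 after median-of-ratios scaling (-0.95), after quantile normalization (-0.93) and without the GB359 tumor (-0.93). Its call held after rescaling without Mir6236. The log2 difference was -0.82 for Pgk1, phosphoglycerate kinase, and -0.39 for Gapdh, and neither was called. Gapdh depended on scaling and was called lower after quantile normalization (-1.16). Eno1, the common enolase, had 1672, 722.6 and 948.6 TPM in tumors and 824.3 to 1093 TPM in controls, overlapping levels with a log2 difference of 0.18 ± 0.22 (SE, adjusted p = 0.48) that was below 0 after quantile normalization (-0.33) and without the GB344 tumor (-0.16). Its near-identical copy Eno1b was between 4.37 and 163.3 TPM within the controls, so the split of reads between both is uncertain.

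Of 13 transport genes, 1 rose and 7 fell, beside 14.4% of all genes called higher and 21.5% lower. Their median log2 difference was -1.19, and that of all genes -0.11. Slc16a3, the lactate exporter MCT4, had 4.30, 2.03 and 5.69 TPM in tumors, 2.15, 1.33 and 1.27 TPM in adjacent samples and 0.353 to 0.856 TPM in controls, and rose by 1.48 against controls (SE 0.23, adjusted p = 0.00019, limma). No control reached 1 TPM, so Slc16a3 passed the filter on low values only through the tumors, where it is high. The call is therefore tied to the filter, and with a minimum of 5 TPM the gene was not tested. Its level was low beside that of Slc16a1 in every sample. Slc16a7, the neuronal transporter MCT2, fell by 1.39 (SE 0.18, adjusted p = 5.41e-05). Bsg, the chaperone of MCT1 and MCT4, had a log2 difference of -0.89 and was not called, although it passed after quantile normalization (-1.04).

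The glucose transporters Slc2a1, of endothelium and glia, and Slc2a3, of neurons, fell by 1.18 and 1.19 (SE 0.14 and 0.13, adjusted p = 2.6e-05 and 1.07e-05, limma). Without the GB344 tumor, Slc2a3 was at -0.996 and just under the minimum. Summed endothelial markers were 123.2 to 208.7 TPM in tumors and 217.8 to 256.0 TPM in controls, and their part in the Slc2a1 level was not tested. Slc2a13, a proton-coupled inositol transporter of the same family, fell by 3.10 on the log2 scale, the largest difference of the list (SE 0.31, adjusted p = 7.18e-06).

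Among 14 regulators, 1 rose and 2 fell, with a median log2 difference of -0.31, and both counts are below the shares of 14.4% and 21.5% over all genes. Pfkfb1, a relative of Pfkfb3, rose by 1.21 (SE 0.16, adjusted p = 4.97e-05, limma) at low levels, 1.99, 3.33 and 2.73 TPM in tumors and 0.322 to 0.852 TPM in controls. It too passed the filter on low values only through the tumors, and with a minimum of 5 TPM it was not tested. The 2 genes that fell were the hypoxia-inducible factor subunits Epas1 (-1.38, adjusted p = 8.66e-05) and Hif3a (-1.66, adjusted p = 0.00247). Hif1a, the main oxygen-regulated factor of glycolytic genes, had 61.3, 62.6 and 61.6 TPM in tumors and 78.8 to 98.1 TPM in controls, a log2 difference of -0.52 ± 0.09 (SE, adjusted p = 0.000382, limma) under the minimum of 1. Hif1a is controlled mainly through protein stability, which these values do not measure.

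Of 14 genes for the entry of pyruvate into mitochondria, 0 rose and 5 fell, beside 14.4% of all genes called higher and 21.5% lower. Their median log2 difference was -0.77, and that of all genes -0.11. At an unadjusted p under 0.05 there were 12 (limma), a cut that most of all tested genes passed. The genes that fell were both subunits of the mitochondrial pyruvate carrier, Mpc1 and Mpc2 (-1.30 and -1.14), the pyruvate dehydrogenase subunit Dlat (-1.13), and the kinases Pdk2 and Pdk4 (-2.90 and -1.90), which inhibit that enzyme. Pdk1, a further kinase of this family and a known hypoxia target, was at -0.51 (adjusted p = 0.0195) and was not called. Against adjacent cerebellum, 0 of the 59 tested genes of the 4 lists were called higher and 18 lower, beside 4.76% and 18.0% of all genes. The largest of these falls were in Aldoc (-5.03), Eno2 (-4.18) and Pdk2 (-2.98). Of the 59, 43 had an unadjusted p under 0.05. Of all 15845 genes, 2870 were higher and 5110 lower at an adjusted p under 0.05. In the comparisons of adjacent with control cerebellum and between the control genotypes, 0 of 57 and 0 of 56 tested genes were called, with 23 and 13 at an unadjusted p under 0.05 (limma). At an adjusted p under 0.05, 1627 of 16091 genes were higher and 897 lower in the first of these comparisons. In the second, 6 of 15575 were higher and 65 lower.

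**Figure D4:**
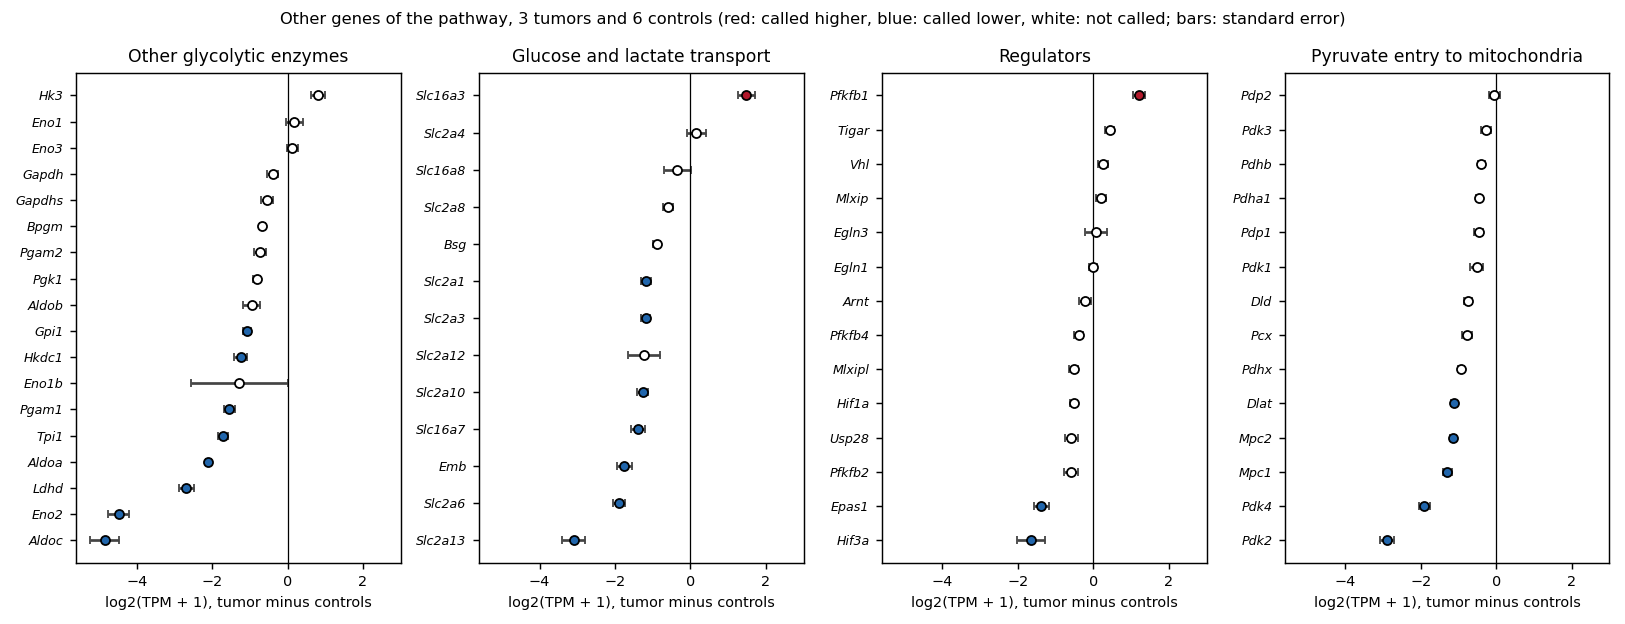
Difference in log2(TPM + 1) between 3 tumors and 6 controls (horizontal axes) for the other genes of the pathway in 4 lists; points are limma estimates and bars standard errors, with calls in red (higher) and blue (lower). Aldoc at -4.85 and Eno2 at -4.48 lie farthest to the left, and Slc16a3 at 1.48 and Pfkfb1 at 1.21 are the genes called higher. Both genes called higher passed the filter on low values only through the tumors.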

How the data were processed

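Poly(A)-selected RNA was sequenced in 12 mouse samples. The authors quantified transcripts with Salmon 0.8.1 on the knownGene set of mm10 and summed them to genes, and the values they deposited are TPM. Each sample sums to between 999793 and 999876. Read depth is unknown, so precision rests on the spread between mice and no counting interval is given. Mir6236 alone took 4.25% to 11.5% of TPM per sample, and rescaling without it was an alternative. All 12 sample columns were used.

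Values were analysed as log2(TPM + 1), a scale that shrinks the ratios of genes with few TPM. A gene entered a comparison if 3 or more of its samples reached 1 TPM. Each comparison was fitted with limma 3.58.1 under R 4.3.3, with a trend of variance on intensity, on the samples of its own groups. P-values were adjusted by the Benjamini-Hochberg method across every gene in the fit. A gene was called where the adjusted p was below 0.01 and the log2 difference was 1 or more in size. The study's methods tested counts, which were not used here. The model was tested on simulated data. Other steps used Python 3.11.15, pandas 2.3.3 and matplotlib 3.10.9.

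Tumor and adjacent samples are paired by mouse. Deviations from group means of the same mouse had correlations of 0.25, 0.18 and 0.15 over 15845 genes, and the block was an alternative. Other alternatives changed the pseudocount, filter, scaling, trend, samples in the fit, controls or thresholds, or left out a sample.

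The 10 genes and the gene lists were chosen with earlier results of these data known. Named besides them were 15 pathway genes set whatever their values, Slc2a1, Slc2a3, Gpi1, Aldoa, Aldoc, Gapdh, Pgk1, Pgam1, Eno1, Eno2, Slc16a3, Slc16a7, Bsg, Pdk1 and Hif1a, and the 3 largest called differences in each direction per comparison. Hk3, Eno1b, Epas1, Hif3a, Mpc1, Mpc2, Dlat and Pdk4 were named after their values were seen, and Mycn as a progenitor marker. Positions and promoter windows are from RefSeq on GRCm38.p6, to which all 10 genes matched.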

Additional observations from a re-analysis of the deposited data

Results flagged for a closer look

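Among the 6 controls, Hk1 in GB517 was 217.2 TPM, set apart from the others by a gap that is 0.727 of the whole range, over Dixon's 95% critical ratio for 6 samples. It was 1 of 15 values examined in this way, of which chance sets apart about 1 in 20.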

How the results depend on the processing

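Against controls, 207 of 210 values of the 10 genes under alternatives kept their direction and their side of the thresholds, and 158 of 170 did so against adjacent cerebellum, where none turned. The number of the 10 genes called was 6 to 7 against controls, 3 to 5 against adjacent cerebellum, 0 to 1 for adjacent against control cerebellum and 0 between control genotypes when 1 sample was left out. With the mouse as a replicate block, 6 of the 10 genes were called against adjacent cerebellum instead of 5, with Hk2 lost and Pfkl and Ldha gained. The block changed no other call among the 10 genes. Without the GB344 tumor the mean Ldha share of tumors was 56.6% instead of 65.6%.

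Some differences that were not called turned. Against controls, Eno1 was -0.33 after quantile normalization and ran from -0.16 to 0.45 when 1 sample was left out, lowest without the GB344 tumor. For adjacent against control cerebellum with 1 sample left out, Hk1 ran from -0.14 to 0.0941, Pfkl from -0.20 to 0.0527, Pfkm from -0.21 to 0.00356, Ldha from -0.0419 to 0.24 and Slc16a1 from -0.0980 to 0.10. Against Brca2-WT;Trp53-mut controls alone, Pfkl was 0.00825 and Slc16a1 0.0816, and against Brca2-mut;Trp53-WT controls alone Pfkfb3 was -0.0425. With GB370 as the only adjacent sample, chosen after seeing the data, Hk1 was 0.24, Hk2 -0.25, Pfkl 0.22, Pfkm 0.15 and Pfkp 0.0250. Between control genotypes, Hk1 was 0.0504 after median-of-ratios scaling and ran from -0.0710 to 0.0402 with 1 sample left out, and Pfkm and Pkm were -0.00565 and -0.0544 after quantile normalization. The cause of these turns was not tested.

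Without read counts, the precision of low values such as those of Slc16a3 and Pfkfb1 is unknown.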
